A study of Mus musculus with 6 samples.

Results

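The transcription factors that maintain hepatocyte identity and the nuclear receptors that sense bile acids and foreign compounds were followed in liver RNA of Arid2 LKO and WT mice. They were chosen by symbol as 9 genes, the identity factors Hnf4a, Foxa1, Foxa2, Foxa3, Cebpa and Cebpb and the receptors Nr1h4, Nr1i2 and Nr1i3. All 9 were found among the 54532 gene identifiers of the tables, and all 9 belonged to the 11672 tested genes, whose mean level reached 0.5 FPKM or more. FPKM is a level per length: fragments per kilobase of exon, scaled to a total for each library. None of the 9 passed the test for a difference between the genotypes. As deposited, 2 of the 9, Hnf4a and Foxa3, had all LKO libraries above all WT libraries, beside 8.0% of all genes tested. Neither stayed apart after quantile normalization.

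HNF4A is a nuclear receptor that binds DNA as a homodimer and drives much of the metabolic programme of the hepatocyte. The FOXA proteins open chromatin at liver enhancers, and the C/EBP proteins are basic leucine zipper factors of metabolic and acute phase genes. FXR (Nr1h4) is the bile acid receptor, and PXR (Nr1i2) and CAR (Nr1i3) switch on drug-metabolising enzymes. All 3 of these receptors pair with RXR.

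The study sequenced liver RNA of mice labelled as a liver-specific Arid2 knockout (LKO) and of mice labelled wild type (WT), with no treatment in either group. There were 6 libraries, 3 per genotype. ARID2 is a subunit of the PBAF chromatin remodelling complex, and the title of the series names hepatic steatosis. The labels used here do not give the Cre driver, strain, age or sex, and are silent on whether libraries came from different animals. P-values therefore cover only the variation among these 6 samples.

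Reads recovered from the FPKM summed to 13947787, 16894024 and 18159285 in LKO replicates 1 to 3. In WT replicates 1 to 3 they summed to 16889737, 17312282 and 16140525. The scaling of the FPKM implied other totals, at 12704131, 15632554 and 18996952 reads for LKO replicates 1 to 3. For WT replicates 1 to 3 it implied 19279637, 17591749 and 15620021 reads. Per recovered read, Hnf4a was lower in LKO replicate 3 (9818 of 18159285 reads) than in WT replicate 1 (9556 of 16889737 reads). Its groups therefore overlapped on the recovered totals. Foxa3 stayed apart on them, with 1204 reads in LKO replicate 3 and 984 in WT replicate 1. The cause of the mismatch was not tested. Arid2 did not separate the groups, with 2.55, 1.33 and 2.04 FPKM in the LKO and 2.65, 1.74 and 1.79 FPKM in the WT libraries. These values sum over the whole gene, so they do not check the genotype labels. The pair of libraries numbered 1 stood apart, with 2368 (LKO) and 2003 (WT) genes at 1 to 5 reads, while the remaining 4 had 3913 to 4263. Mitochondrial transcripts took 27.6%, 7.72% and 4.76% of reads in LKO replicates 1 to 3, against 20.7%, 10.2% and 18.5% in WT replicates 1 to 3. The tissue matched its label. The 7 hepatocyte markers found, which include Alb and Ttr, summed to 49075 to 68632 FPKM in LKO and 45966 to 59722 FPKM in WT libraries. The 8 cholangiocyte markers summed to 7.06 to 28.5 FPKM in LKO and 10.3 to 18.1 FPKM in WT libraries, with Cldn4 at 0 throughout. In bulk tissue, fewer cells of a type and less RNA per cell cannot be told apart.

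Promoter windows are shown for the pair of genes whose groups did not overlap as deposited. They are also shown for Cebpa, the identity factor with the widest spread among LKO libraries relative to its mean. They run from 250 bases before to 50 bases after the transcription start in RefSeq on GRCm38.p6, in which all 9 genes were matched. Capitals mark matches on either strand. Hnf4a has an upstream and a downstream start, 40298 bases apart, of which the downstream promoter is known as the one used in adult liver. The windows lie at chr2:163506607-163506906 and chr2:163546905-163547204 (both plus strand) for Hnf4a, at chr7:19023490-19023789 (minus strand) for Foxa3 and at chr7:35119043-35119342 (plus strand) for Cebpa.
Hnf4a upstream start: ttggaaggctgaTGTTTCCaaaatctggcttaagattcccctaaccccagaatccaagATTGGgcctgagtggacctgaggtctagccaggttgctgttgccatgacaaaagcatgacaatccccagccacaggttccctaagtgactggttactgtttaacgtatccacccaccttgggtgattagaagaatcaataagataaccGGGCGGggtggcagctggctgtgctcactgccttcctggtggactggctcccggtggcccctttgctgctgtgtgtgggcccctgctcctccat
Hnf4a downstream start: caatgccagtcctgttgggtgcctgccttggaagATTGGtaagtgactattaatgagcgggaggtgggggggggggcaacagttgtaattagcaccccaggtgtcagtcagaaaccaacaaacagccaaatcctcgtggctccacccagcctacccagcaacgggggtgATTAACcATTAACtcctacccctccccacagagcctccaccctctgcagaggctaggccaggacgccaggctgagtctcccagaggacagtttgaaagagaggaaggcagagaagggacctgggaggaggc
Foxa3: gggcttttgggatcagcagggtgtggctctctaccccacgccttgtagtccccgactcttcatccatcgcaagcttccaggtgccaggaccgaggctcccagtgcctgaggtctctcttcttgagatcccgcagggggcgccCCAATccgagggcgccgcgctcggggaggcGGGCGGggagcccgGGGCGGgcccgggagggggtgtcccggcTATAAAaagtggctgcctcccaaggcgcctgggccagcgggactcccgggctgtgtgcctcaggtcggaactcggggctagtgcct
Cebpa: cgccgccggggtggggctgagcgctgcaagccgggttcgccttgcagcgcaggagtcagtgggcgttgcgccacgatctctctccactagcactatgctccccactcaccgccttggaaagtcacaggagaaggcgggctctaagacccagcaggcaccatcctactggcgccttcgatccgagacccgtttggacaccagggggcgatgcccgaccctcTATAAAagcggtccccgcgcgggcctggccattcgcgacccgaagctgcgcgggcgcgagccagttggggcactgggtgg

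The downstream Hnf4a window held the HNF1 core GTTAAT in 2 places on the opposite strand, where it reads ATTAAC, at bases -81 to -76 and -74 to -69 from the start. Only 7.10% of the 32851 promoter windows held this core. The upstream Hnf4a window held no HNF1 core, but it held a FOX core (TGTTTNC, in 20.5% of windows) and a GC box (GGGCGG, in 35.7%). Foxa3 had a TATA box (TATAAA, in 13.6%) at -36 to -31, with 2 GC boxes and a CCAAT box (CCAAT, in 37.4%) upstream of it. Both Hnf4a windows also held a CCAAT box on the opposite strand, where it reads ATTGG. It lay at -192 to -188 in the upstream window and at -216 to -212 in the downstream window. Cebpa had a TATA box at -30 to -25 and no other match. Further motifs searched on both strands were the nuclear receptor core AGGTCA (16.3% of windows), the HNF4 element CAAAGTCCA (0.475%) and the C/EBP element TTGCNNAA (10.8%). Among the windows of the 9 genes, AGGTCA was matched in Nr1h4 and the last pair of motifs in none. Matches in the printed windows did not overlap each other. These matches describe letters in the windows, not binding. The FPKM sum both Hnf4a starts, so the use of either promoter was not measured.

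Hnf4a and Foxa3 were the members whose LKO and WT libraries did not overlap as deposited; neither passed the test. Hnf4a (ENSMUSG00000017950, chromosome 2, 163506808 to 163572910, plus strand, mm10, 13 merged exons) was at 144, 189.6 and 107 FPKM across LKO replicates 1 to 3, against 103, 100.1 and 94.9 FPKM in WT replicates 1 to 3. LKO replicates 1 and 2 stood well above the WT libraries, while LKO replicate 3 was 107 FPKM against a highest WT value of 103. The means were 147 ± 41.4 FPKM in LKO and 99.2 ± 3.96 FPKM in WT (SD, n = 3 each), a ratio of 1.48. On the log2(FPKM + 1) scale the difference was 0.52 ± 0.32 (SE; limma, 95% interval -0.22 to 1.27, adjusted p = 0.695). The spread also differed, with a coefficient of variation of 28.2% in LKO and 4.0% in WT. It was not tested.

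Foxa3, a FOXA protein with a role in glucose homeostasis (ENSMUSG00000040891, chromosome 7, 19013284 to 19023538, minus strand, 2 merged exons), was at 50.9, 81.6 and 31.1 FPKM across LKO replicates 1 to 3. In WT replicates 1 to 3 it was at 25.1, 24.5 and 26.9 FPKM. The order of the LKO libraries was that of Hnf4a, with replicate 2 highest and replicate 3 nearest to WT. Its means were 54.5 ± 25.4 FPKM in LKO and 25.5 ± 1.27 FPKM in WT (SD, n = 3 each), a ratio of 2.14. The difference of 0.96 ± 0.38 (SE; log2 scale, limma, 95% interval 0.08 to 1.85) had an unadjusted p of 0.0365, rank 863 among the 11672 genes, and an adjusted p of 0.494. Without LKO replicate 2 the difference was 0.63, and without LKO replicate 3 it was 1.31 (limma adjusted p = 0.164). Array quality weights count discordant libraries less, but the estimate of the weights stopped before it converged. With them, Foxa3 had a difference of 1.34 and an adjusted p of 0.0263 in limma. Under those weights 621 genes rose and 574 fell, against 1 and 4 without them.

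No gene of the 9 was called (limma-trend, adjusted p under 0.05), 1 of them had an unadjusted p under 0.05, and voom on recovered reads called 0 as well. Over all 11672 genes tested, 0.0428% were called, and 500 higher and 576 lower had an unadjusted p under 0.05 (limma-trend). All LKO libraries lay above all WT libraries for 2 of the 9, against 8.0% of all genes tested, and below them for 0 of the 9, against 7.42%. The median log2 difference of the 9 was -0.07, between -0.12 and 0.08 with 1 library left out, beside 0.03 for all genes. The separation of the groups also followed the scaling. Foxa3 was separate as deposited and after scaling to equal sums of FPKM, with or without the mitochondrial genome, but not after quantile normalization, where the lowest LKO value was 28.3 and the highest WT value 30.4 FPKM. Hnf4a overlapped after scaling to equal sums outside the mitochondrial genome (lowest LKO 114.6, highest WT 117 FPKM) and after quantile normalization (lowest LKO 104, highest WT 133.5 FPKM). The differences of both genes stayed above 0 in each scaling, between 0.38 and 0.53 for Hnf4a and between 0.82 and 0.97 for Foxa3.

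**Figure D1:**
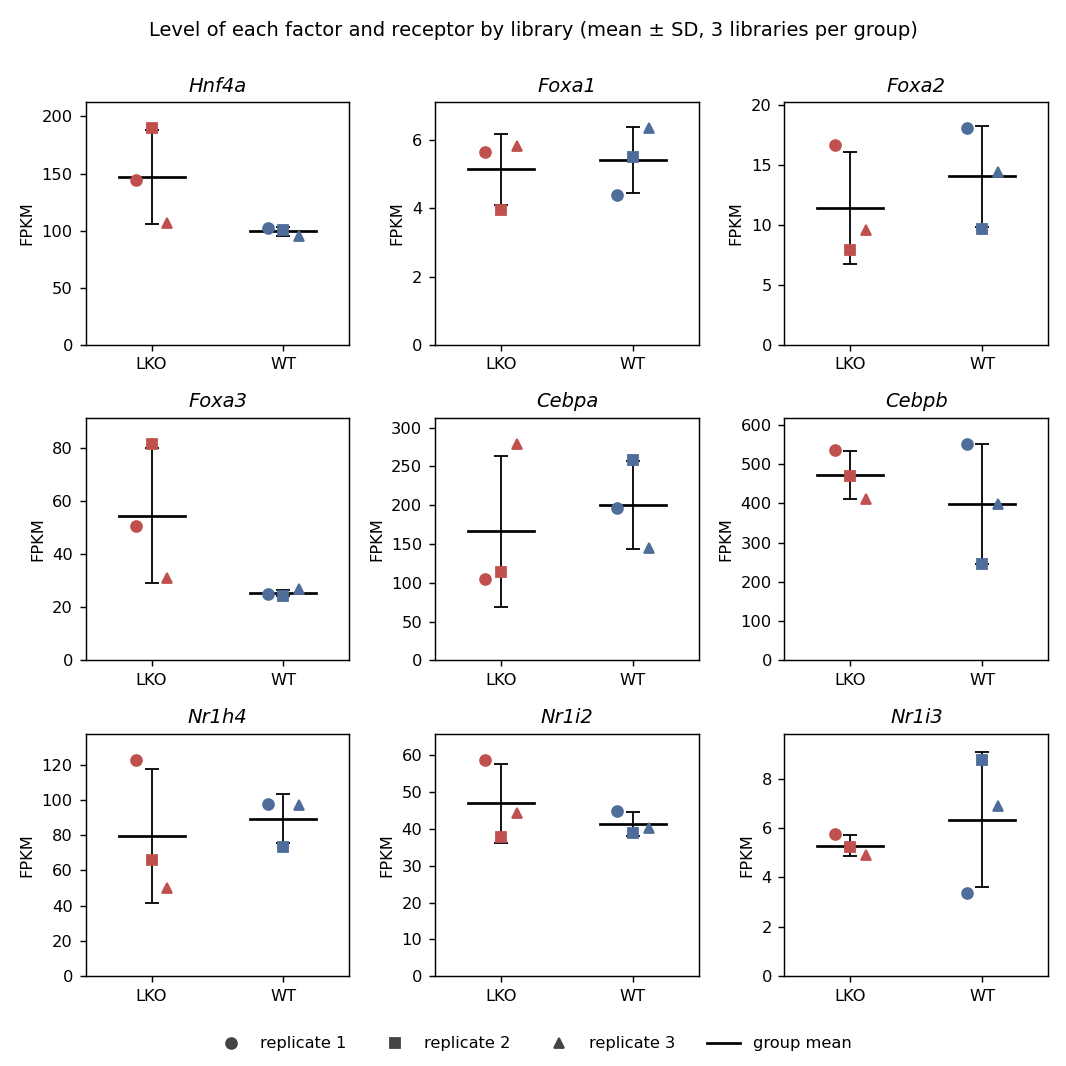
FPKM of the 9 genes in each library, LKO left of WT, with a symbol for each replicate number, a line at the group mean and bars for the SD of 3 libraries. Hnf4a and Foxa3 have all LKO values above the WT values, and the groups of the other 7 genes overlap.

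The remaining FOXA genes were expressed at lower levels. Foxa2, a regulator of bile acid and lipid genes (ENSMUSG00000037025, chromosome 2, 148042877 to 148046969, minus strand), was at 16.7, 7.88 and 9.53 FPKM across LKO replicates 1 to 3 and at 18.0, 9.64 and 14.4 FPKM in WT replicates 1 to 3. Replicate 1 was the highest of each genotype, and the groups overlapped. The log2 difference was -0.31 ± 0.36 (SE; limma, 95% interval -1.15 to 0.53, adjusted p = 0.866). Foxa1, the partner of Foxa2 in liver development (ENSMUSG00000035451, chromosome 12, 57540628 to 57546916, minus strand), had the lowest mean of the 9 in both groups. Its range overlapped that of Nr1i3 in each group. Its levels were 5.65, 3.94 and 5.84 FPKM across LKO replicates 1 to 3 and at 4.40, 5.52 and 6.35 FPKM in WT replicates 1 to 3. The groups again overlapped, with a log2 difference of -0.07 ± 0.25 (SE; limma, 95% interval -0.65 to 0.52, adjusted p = 0.965). Foxa1 rested on 205 to 369 reads per library.

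Cebpa and Cebpb are often set against each other, as a factor of the quiescent metabolic liver and one induced in injury and the acute phase. Cebpa (ENSMUSG00000034957, chromosome 7, 35119293 to 35121928, plus strand, a single exon) was at 105, 115 and 279 FPKM across LKO replicates 1 to 3, against 197, 258 and 145 FPKM in WT replicates 1 to 3. LKO replicates 1 and 2 lay below every WT library and LKO replicate 3 above every one. Its log2 difference was -0.37 ± 0.46 (SE; limma, 95% interval -1.45 to 0.70, adjusted p = 0.878), while leaving out LKO replicate 3 gave -0.82 (limma adjusted p = 0.429). Cebpb (ENSMUSG00000056501, chromosome 2, 167688915 to 167690418, plus strand, a single exon) had the highest mean of the 9 in both groups. It was at 535, 468 and 412 FPKM across LKO replicates 1 to 3 and at 551, 245 and 399.7 FPKM in WT replicates 1 to 3. WT replicate 2 was low and the groups overlapped. The log2 difference was 0.31 ± 0.39 (SE; limma, 95% interval -0.60 to 1.22, adjusted p = 0.879). Leaving out WT replicate 2 brought it to 0.00. On the opposite strand, Tmem189 shares 312 of the 1504 exon bases of Cebpb, and Gm45091 shares 51 of those of Cebpa.

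The bile acid receptor gene Nr1h4 (ENSMUSG00000047638, chromosome 10, 89454234 to 89533585, minus strand) was at 122.6, 65.8 and 50.2 FPKM across LKO replicates 1 to 3, against 97.5, 73.3 and 97.3 FPKM in WT replicates 1 to 3. LKO replicate 1 was the highest of all libraries, while LKO replicates 2 and 3 lay below every WT library. The log2 difference was -0.26 ± 0.39 (SE; limma, 95% interval -1.17 to 0.66, adjusted p = 0.905). Sinusoidal endothelial markers also summed highest in LKO replicate 1, at 38.7, 15.7 and 15.8 FPKM across LKO replicates 1 to 3, against 34.1, 25.8 and 30.8 FPKM in WT replicates 1 to 3; its part in the level of Nr1h4 was not tested. Nr1i2, the PXR gene (ENSMUSG00000022809, chromosome 16, 38248323 to 38294824, minus strand), was at 58.7, 37.9 and 44.2 FPKM across LKO replicates 1 to 3 and at 44.9, 38.8 and 40.1 FPKM in WT replicates 1 to 3. These ranges overlapped, with a log2 difference of 0.16 ± 0.28 (SE; limma, 95% interval -0.50 to 0.83, adjusted p = 0.921).

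Nr1i3, the CAR gene (ENSMUSG00000005677, chromosome 1, 171213970 to 171220701, plus strand), was at 5.74, 5.22 and 4.89 FPKM across LKO replicates 1 to 3, against 3.36, 8.76 and 6.89 FPKM in WT replicates 1 to 3. The LKO libraries lay close together, inside the WT range. Its log2 difference was -0.15 ± 0.33 (SE; limma, 95% interval -0.92 to 0.63, adjusted p = 0.938). Of its 4414 merged exon bases, 3304 (74.9%) are shared with exons of Tomm40l on the opposite strand, and the sources used here do not give whether reads were counted by strand. The level of Nr1i3 is therefore uncertain. Tomm40l itself was at 1.15 to 1.79 FPKM in LKO and 0.859 to 1.58 FPKM in WT libraries.

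**Figure D2:**
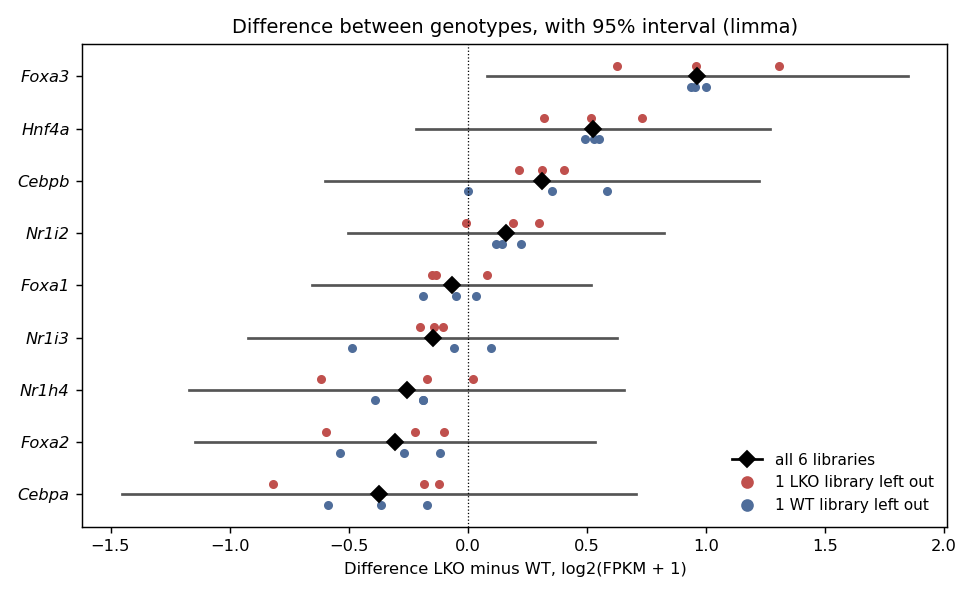
Difference LKO minus WT on the log2(FPKM + 1) scale for the 9 genes, with diamonds for all 6 libraries, lines for the limma 95% interval and dots for fits with 1 library left out. The interval of Foxa3 alone lies above 0, from 0.08 to 1.85, before any adjustment for 11672 tests; some dots of Cebpb, Nr1i2, Foxa1, Nr1i3 and Nr1h4 lie across 0 from their diamond.

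The direction of 5 of the 9 genes turned when 1 library was left out. For Foxa1 it turned without WT replicate 3 (0.04) or LKO replicate 2 (0.08), for Nr1h4 without LKO replicate 3 (0.02), for Nr1i2 without LKO replicate 1 (-0.0090), for Nr1i3 without WT replicate 2 (0.10) and for Cebpb, narrowly, without WT replicate 2. Hnf4a, Foxa2, Foxa3 and Cebpa kept their direction with any single library left out. Their lowest and highest values were 0.32 and 0.73 for Hnf4a, -0.60 and -0.10 for Foxa2, 0.63 and 1.31 for Foxa3, and -0.82 and -0.12 for Cebpa. The intervals of all 9 genes are wide: those of Hnf4a, Foxa2, Foxa3, Cebpa, Cebpb and Nr1h4 include a change of 1 on the log2 scale in some direction. Missing the threshold therefore does not show that the levels were alike.

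By abundance per length, LKO libraries ran from Cebpb at 472 FPKM through Cebpa at 166, Hnf4a at 147, Nr1h4 at 79.5, Foxa3 at 54.5, Nr1i2 at 46.9, Foxa2 at 11.4 and Nr1i3 at 5.28 to Foxa1 at 5.14 FPKM. Among these LKO neighbours, only Cebpb and Cebpa, Nr1i2 and Foxa2, and Foxa2 and Nr1i3 had ranges apart. In WT libraries the order was Cebpb at 398, Cebpa at 199.9, Hnf4a at 99.2, Nr1h4 at 89.4, Nr1i2 at 41.3, Foxa3 at 25.5, Foxa2 at 14.0, Nr1i3 at 6.34 and Foxa1 at 5.42 FPKM. There, ranges overlapped for Cebpb and Cebpa, Hnf4a and Nr1h4, and Nr1i3 and Foxa1, and not for the other neighbours. Foxa3 and Nr1i2 were the only neighbours to trade places between the genotypes. By mean over the 6 libraries, Cebpb ranked 120 and Foxa1 4517 among the genes tested.

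**Figure D3:**
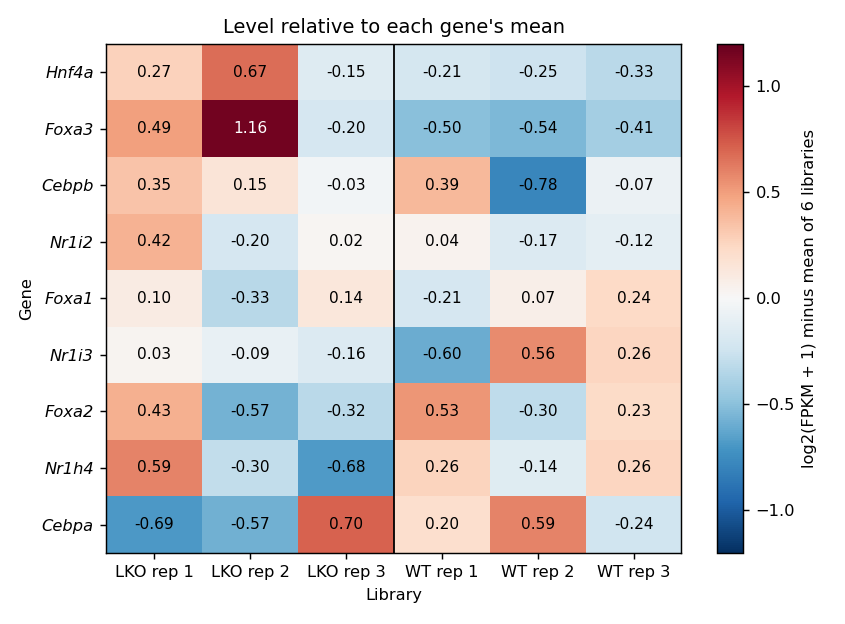
Log2(FPKM + 1) of the 9 genes in each library minus the mean of the gene over the 6 libraries, with LKO replicates to the left of WT replicates and red for higher values. LKO replicate 2 is at 1.16 for Foxa3 and 0.67 for Hnf4a, and LKO replicates 1 and 2 at -0.69 and -0.57 for Cebpa, against 0.70 in LKO replicate 3.

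Ratios within a library do not depend on a constant scaling factor for each library. The ratio of Foxa3 to Foxa2 was 3.05, 10.3 and 3.27 in LKO replicates 1 to 3, against 1.39, 2.54 and 1.87 in WT replicates 1 to 3. All LKO ratios exceeded all WT ratios, with a log2 difference of 1.32. An exact two-sided permutation test gave p = 0.1, the smallest that 3 against 3 libraries allow, and 0.4 after Benjamini-Hochberg adjustment over the 6 ratios examined. Neither gene passed the test on its own.

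The other ratios overlapped between the genotypes. Nr1h4 to Hnf4a was 0.851, 0.347 and 0.469 in LKO replicates 1 to 3, against 0.950, 0.732 and 1.03 in WT replicates 1 to 3 (log2 difference -0.79, exact permutation p = 0.2, adjusted 0.4). Foxa2 to Hnf4a was 0.116, 0.0416 and 0.0890 in LKO replicates 1 to 3, against 0.176, 0.0964 and 0.152 in WT replicates 1 to 3 (log2 difference -0.86, exact permutation p = 0.2, adjusted 0.4). In both, LKO replicate 2 had the lowest ratio of all libraries. Cebpb to Cebpa was 5.09, 4.09 and 1.48 in LKO replicates 1 to 3, against 2.80, 0.949 and 2.76 in WT replicates 1 to 3 (log2 difference 0.69, exact permutation p = 0.5, adjusted 0.6). LKO replicates 1 and 2 exceeded every WT library in this ratio, and LKO replicate 3 did not. Foxa1 to Foxa2 and Nr1i3 to Nr1i2 had log2 differences of 0.25 and -0.32, each with an exact permutation p of 0.6.

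**Figure D4:**
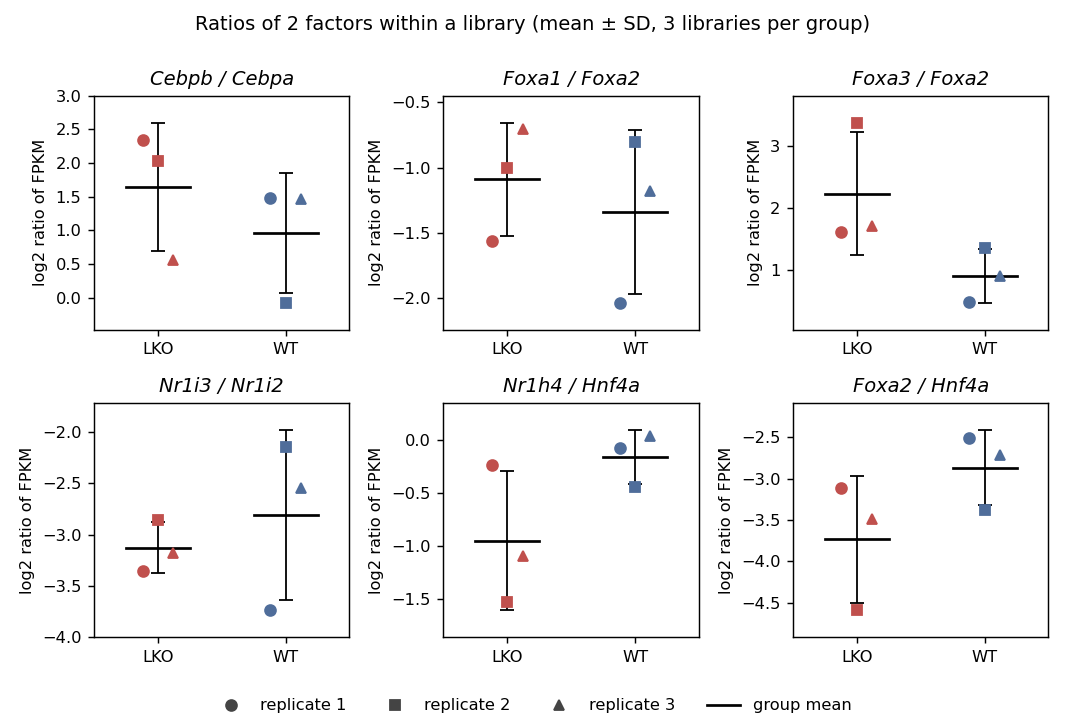
Log2 of 6 ratios of FPKM within each library, LKO left of WT, with a symbol for each replicate number, a line at the group mean and bars for the SD of 3 libraries. Of the 6, Foxa3 to Foxa2 has its groups apart, with LKO ratios of 3.05 to 10.3 and WT ratios of 1.39 to 2.54.

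The partners and known target genes of these factors were examined in 11 lists. They held 118 distinct genes, of which 112 were tested. None was called by limma-trend or by voom on recovered reads. An unadjusted p under 0.05 (limma-trend) was found for 11 with higher LKO values and 8 with lower ones. Over all 11672 genes tested, these counts were 500 and 576. With array quality weights, whose estimate did not converge, 16 of the 112 were called, beside 621 higher and 574 lower among the 11672 genes tested. Groups were apart for 18 of the 112 with LKO above and for 8 with LKO below, beside 8.0% and 7.42% of all genes tested. Some genes stand in more than 1 list, Alb, Tat and G6pc among them. The genes named from each list are those with the smallest p.

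Of 19 other liver-enriched factors, 0 rose and 0 fell, and the median log2 difference was -0.01, between -0.06 and 0.08 with 1 library left out. Onecut2, a factor of liver and bile duct development, averaged 2.75 ± 0.662 FPKM in LKO and 4.55 ± 0.354 FPKM in WT (limma adjusted p = 0.492). It had LKO below WT in all libraries, while the cholangiocyte marker sums given above overlapped; the part of bile duct cells was not tested. Xbp1, which drives the secretory apparatus, was at 161, 209 and 55.0 FPKM across LKO replicates 1 to 3, against 40.1, 53.1 and 54.7 FPKM in WT replicates 1 to 3. Xbp1 is also a plasma cell factor. The B and plasma cell markers summed to 3.60, 1.02 and 2.77 FPKM across LKO replicates 1 to 3. In WT replicates 1 to 3 they summed to 14.8, 11.0 and 6.80 FPKM. The part of these cells in the level of Xbp1 was not tested. Hhex, a homeobox factor of liver budding, was at 8.70, 3.44 and 29.3 FPKM across LKO replicates 1 to 3, against 48.2, 27.9 and 43.0 FPKM in WT replicates 1 to 3. In Xbp1 and Hhex alike, LKO replicate 3 lay next to or within the WT range (limma adjusted p = 0.489 for Xbp1 and 0.445 for Hhex).

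The 10 C/EBP relatives and other bZIP genes had 0 risen and 0 fallen, with a median of 0.18 that lay between -0.0066 (without LKO replicate 1) and 0.21 with 1 library left out. Cebpd, an acute phase relative of Cebpb, was at 11.6, 16.6 and 8.33 FPKM across LKO replicates 1 to 3, against 3.20, 3.79 and 5.47 FPKM in WT replicates 1 to 3. Its log2 difference was 1.33 ± 0.32 (SE; limma, adjusted p = 0.251). Nfil3, a circadian repressor, was at 24.6, 25.1 and 11.6 FPKM across LKO replicates 1 to 3, against 4.20, 7.41 and 7.99 FPKM in WT replicates 1 to 3 (limma adjusted p = 0.294). Cebpd and Nfil3 had all LKO libraries above WT. Dbp, a circadian activator on the same kind of site as Nfil3, was at 7.55, 10.2 and 63.3 FPKM across LKO replicates 1 to 3, against 68.1, 101 and 54.2 FPKM in WT replicates 1 to 3 (limma adjusted p = 0.469). Dbp was low in LKO replicates 1 and 2, and LKO replicate 3 lay within the WT range; the labels used here give no time of day. Tef, a relative of Dbp, averaged 24.3 ± 8.02 FPKM in LKO and 43.3 ± 12.1 FPKM in WT (limma adjusted p = 0.533). The neutrophil markers summed to 13.0, 10.1 and 2.85 FPKM across LKO replicates 1 to 3 and to 2.25, 0.410 and 3.15 FPKM in WT replicates 1 to 3, with 1 of 7 (Ly6g) at 0 in all libraries. These cells also express C/EBP genes, and their part was not tested.

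Of 11 tested partners and relatives of the nuclear receptors, 0 rose and 0 fell, with a median of 0.08 that was -0.05 after quantile normalization and 0.05 to 0.20 with 1 library left out. Ahr, the receptor for dioxin-like compounds, was at 9.08, 10.7 and 12.5 FPKM across LKO replicates 1 to 3, against 4.51, 4.28 and 6.95 FPKM in WT replicates 1 to 3 (limma adjusted p = 0.339). Ahr and Ppara, a receptor for fatty acids, had all LKO libraries above WT, and Ppara averaged 15.1 ± 8.48 FPKM in LKO and 8.0 ± 1.60 FPKM in WT (limma adjusted p = 0.628). Nr1h5, a relative of Nr1h4, averaged 0.995 ± 0.482 FPKM in LKO and 2.74 ± 0.639 FPKM in WT (limma adjusted p = 0.320). Nr0b2, the co-repressor SHP that FXR induces, was at 94.99, 29.6 and 93.8 FPKM across LKO replicates 1 to 3, against 22.1, 30.0 and 54.7 FPKM in WT replicates 1 to 3. LKO replicate 2 was within the WT range of Nr0b2 (limma adjusted p = 0.676). The Nr0b2 difference of 0.93 became -0.26 with array quality weights, whose estimate did not converge. The 14 coregulators had 0 risen and 0 fallen and a median of 0.11, which was 0.17 without LKO replicate 1. Ppargc1b, a coactivator of lipid synthesis genes, averaged 0.748 ± 1.06 FPKM in LKO and 1.64 ± 0.660 FPKM in WT (limma adjusted p = 0.660). Its relative Ppargc1a, a coactivator of glucose output, averaged 1.89 ± 0.692 FPKM in LKO and 1.25 ± 0.0321 FPKM in WT (limma adjusted p = 0.739). The groups of both overlapped. The corepressor Nrip1 had all LKO libraries above WT, at 0.813 ± 0.127 FPKM in LKO and 0.540 ± 0.121 FPKM in WT (limma adjusted p = 0.774). The acetyltransferase Crebbp had them below, as it averaged 1.57 ± 0.171 FPKM in LKO and 2.03 ± 0.0682 FPKM in WT (limma adjusted p = 0.773).

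The 16 HNF4A target genes had 0 risen and 0 fallen. None had groups apart, beside 8.0% of all genes tested with LKO above and 7.42% with LKO below. Their median log2 difference was -0.05, next to 0.52 for Hnf4a itself. With 1 library left out, this median lay between -0.20 (without LKO replicate 1) and -0.0033 (without WT replicate 2). Mttp, which loads lipid onto lipoproteins, averaged 39.8 ± 19.8 FPKM in LKO and 22.7 ± 11.0 FPKM in WT (limma adjusted p = 0.716). F7, coagulation factor VII, averaged 38.2 ± 19.2 FPKM in LKO and 60.1 ± 12.1 FPKM in WT (limma adjusted p = 0.692). F10, coagulation factor X, averaged 148 ± 32.3 FPKM in LKO and 194.6 ± 42.0 FPKM in WT (limma adjusted p = 0.803). No gene of this list had an unadjusted p under 0.05. Of the 8 FOXA target genes 0 rose and 0 fell, with a median of 0.41. All LKO libraries were above WT for 3 of the 8, against 8.0% of all genes tested. The median ran from 0.20 without WT replicate 1 to 0.72 without WT replicate 2, and leaving out LKO replicates 1 to 3 in turn gave 0.67, 0.21 and 0.24. Igfbp1, an insulin-repressed binding protein for IGF, had the largest difference of them, at 445, 423 and 93.1 FPKM across LKO replicates 1 to 3, against 45.6, 23.1 and 40.9 FPKM in WT replicates 1 to 3. Its log2 difference was 2.85 ± 0.64 (SE; limma, 95% interval 1.36 to 4.35, adjusted p = 0.232). Afp, a fetal liver protein, lay the other way, at 0.315 ± 0.232 FPKM in LKO and 0.919 ± 0.484 FPKM in WT (limma adjusted p = 0.604). Tat, an enzyme of tyrosine breakdown, and G6pc, the last enzyme of glucose output, stand in the FOXA and C/EBP lists. Tat averaged 1146 ± 383 FPKM in LKO and 578 ± 194 FPKM in WT (limma adjusted p = 0.525). G6pc averaged 299.9 ± 95.7 FPKM in LKO and 156 ± 20.8 FPKM in WT (limma adjusted p = 0.497). The 12 C/EBP target genes had 0 risen and 0 fallen, with a median of 0.25 that was 0.42 without LKO replicate 1. Agt, angiotensinogen, had all LKO libraries above WT, at 556 ± 54.7 FPKM in LKO and 361 ± 90.1 FPKM in WT (limma adjusted p = 0.623). Arg1, the last enzyme of the urea cycle, had all of them below, at 508 ± 41.8 FPKM in LKO and 673 ± 51.4 FPKM in WT (limma adjusted p = 0.767).

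Among 8 tested genes induced by FXR, 0 rose and 0 fell, with a median of 0.42. It was 0.27 and 0.64 when WT replicate 1 or 2 was left out, and 0.67 when LKO replicate 1 was. Abcb4, the phospholipid transporter of the bile canaliculus, was at 44.3, 32.0 and 34.8 FPKM across LKO replicates 1 to 3, against 14.8, 19.3 and 17.8 FPKM in WT replicates 1 to 3. All LKO libraries were above WT, with a log2 difference of 1.05 ± 0.27 (SE; limma, adjusted p = 0.294). Sdc1, a heparan sulphate proteoglycan, averaged 40.8 ± 15.7 FPKM in LKO and 27.4 ± 4.93 FPKM in WT (limma adjusted p = 0.747). Pltp, the phospholipid transfer protein, averaged 17.1 ± 8.90 FPKM in LKO and 10.4 ± 8.17 FPKM in WT (limma adjusted p = 0.767). The groups of Sdc1 and Pltp overlapped. The list of genes repressed through FXR and SHP held 3 genes, of which 0 rose and 0 fell. Their median of -0.61 was -1.04 and -0.31 when WT replicate 1 or 2 was left out, and -0.21 and -0.98 when LKO replicate 1 or 3 was. Cyp7a1, the rate-limiting enzyme of bile acid synthesis, was at 1.06, 1.56 and 12.1 FPKM across LKO replicates 1 to 3, against 23.4, 8.63 and 28.5 FPKM in WT replicates 1 to 3. LKO replicates 1 and 2 were below every WT library and LKO replicate 3 was within the WT range, and the log2 difference was -2.22 ± 0.75 (SE; limma, 95% interval -3.97 to -0.46, adjusted p = 0.425). Cyp8b1, which sets the ratio of bile acid species, averaged 68.7 ± 34.8 FPKM in LKO and 104.7 ± 47.7 FPKM in WT (limma adjusted p = 0.803). Slc10a1, the bile acid uptake transporter, averaged 174 ± 125 FPKM in LKO and 156 ± 102 FPKM in WT, and its sign turned with the scaling.

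The 11 tested PXR and 12 tested CAR target genes had 0 risen and 0 fallen. The median of the PXR list was 0.40, but leaving out WT replicates 1 to 3 in turn gave -0.38, 0.79 and 0.80, and leaving out LKO replicates 1 to 3 in turn gave 0.90, 0.14 and -0.13. The median of the CAR list was 0.73; leaving out LKO replicates 1 to 3 in turn gave 1.66, 0.46 and -0.11, and leaving out WT replicate 1 gave 0.18. Cyp2b10, the textbook CAR target, was at 0.559, 6.18 and 17.6 FPKM across LKO replicates 1 to 3, against 0.123, 2.18 and 0.424 FPKM in WT replicates 1 to 3. LKO replicate 1 lay within the WT range (limma adjusted p = 0.600). Cyp2c37, a relative from the same gene superfamily, was at 543, 615 and 536 FPKM across LKO replicates 1 to 3, against 58.1, 169 and 417 FPKM in WT replicates 1 to 3 (limma adjusted p = 0.466). Gadd45b, a stress gene that binds CAR, was at 82.5, 23.7 and 3.38 FPKM across LKO replicates 1 to 3, against 1.76, 1.40 and 0.846 FPKM in WT replicates 1 to 3. Its log2 difference was 3.18 ± 0.94 (SE; limma, 95% interval 0.98 to 5.37, adjusted p = 0.354). Cyp2c55 lay below WT in all LKO libraries, at 1.06 ± 0.400 FPKM in LKO and 2.53 ± 0.476 FPKM in WT (limma adjusted p = 0.354). Of the PXR list, Cyp3a13 averaged 62.2 ± 18.7 FPKM in LKO and 34.0 ± 11.0 FPKM in WT (limma adjusted p = 0.569). The efflux pump Abcb1a averaged 1.58 ± 1.34 FPKM in LKO and 0.378 ± 0.0906 FPKM in WT (limma adjusted p = 0.608). Abcc3, another exporter, averaged 59.4 ± 39.7 FPKM in LKO and 26.0 ± 8.27 FPKM in WT (limma adjusted p = 0.635). The groups of these 3 genes overlapped, with log2 differences of 0.86, 0.77 and 0.99 in the order given. Cyp3a25 had all LKO libraries below WT, at 151 ± 48.0 FPKM in LKO and 243.5 ± 20.6 FPKM in WT (limma adjusted p = 0.582). The Cyp2b, Cyp2c and Cyp3a genes belong to families with close copies, so reads may have been split among them.

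**Figure D5:**
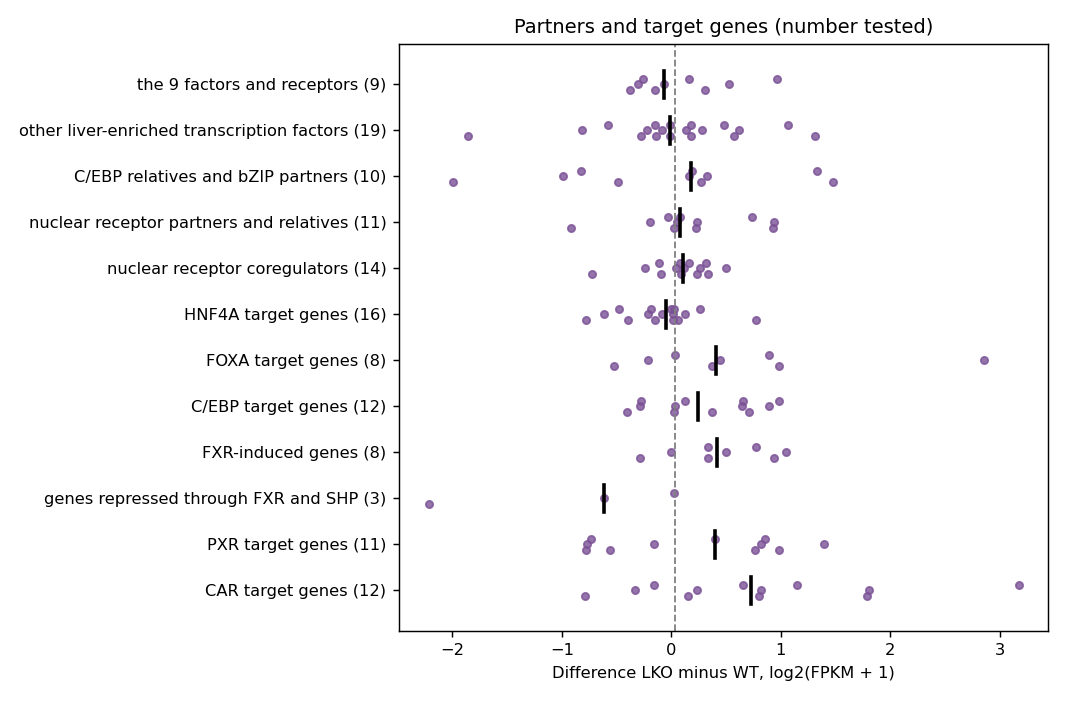
Difference LKO minus WT on the log2(FPKM + 1) scale for the 9 genes and for the tested genes of 11 partner and target lists, a dot for each gene, with bars at the list medians and a dashed line at the median of all genes tested (0.03). Medians run from -0.61 for the genes repressed through FXR and SHP to 0.73 for the CAR target genes.

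The genes whose pattern over the 6 libraries lay nearest to each member were sought among the 9773 genes averaging 1 FPKM or more, by the root mean square difference of centred log2(FPKM + 1). Nearest to Foxa3 was B4galt1, a galactosyltransferase, at a distance of 0.0540, with 18.9, 30.4 and 10.5 FPKM across LKO replicates 1 to 3 and 9.05, 8.11 and 9.99 FPKM in WT replicates 1 to 3. Hnf4a was nearest to Fbxo4, of the F-box family, at 0.0566, with 6.11, 8.72 and 4.17 FPKM across LKO replicates 1 to 3 and 3.65, 3.89 and 3.50 FPKM in WT replicates 1 to 3. Both neighbours repeat the order of LKO libraries seen in Foxa3 and Hnf4a, which follows from their choice by nearness to these same values. Foxa2 had the closest neighbour of the 9, Plekha5 at 0.0188. Second came Ythdf2 for Hnf4a, Trmt61a for Foxa3 and Ring1 for Foxa2. For the others the pairs were Csrp2 and Nlk for Foxa1, Tymp and Rassf7 for Cebpa, Farp1 and Smco4 for Cebpb, Rpp21 and Nxf1 for Nr1h4, Manba and Mta1 for Nr1i2, and Gm10039 and Mrps6 for Nr1i3. Among the 9 genes themselves, the smallest distances were 0.234 for Foxa2 and Nr1h4, 0.252 for Foxa1 and Nr1i2, and 0.279 for Hnf4a and Foxa3. Nr1h4 ranked 420 as a neighbour of Foxa2, Nr1i2 929 as one of Foxa1 and Foxa3 761 as one of Hnf4a. Foxa1 and Nr1i2 spread by only 0.201 and 0.208 (root mean square) around their own means. This is less than the distance between them, so that distance does not show a shared pattern. Cebpa and Foxa3 were the farthest apart, at 1.08. With 6 libraries, which share the scaling, near neighbours among so many genes are a description of these samples. Beside Hnf4a, its antisense neighbour Hnf4aos, named after its values were seen, was at 11.8, 13.2 and 12.4 FPKM across LKO replicates 1 to 3, against 6.25, 9.53 and 9.13 FPKM in WT replicates 1 to 3 (limma adjusted p = 0.580). Its exons share 0 bases with those of Hnf4a.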

How the data were processed

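RNA from liver was measured in 3 LKO and 3 WT libraries; groups and replicate numbers come from the sample titles. Per the labels' protocols, TRIzol and column extraction preceded a NEBNext Ultra preparation. Per the submitters' processing notes, the build was mm10 and the tools, named without their steps, were HISAT2 2.0.5, CASAVA, featureCounts 1.5.0-p3 and DESeq2 1.20.0. The sources used here do not give the annotation release, strand setting or filters. The authors deposited FPKM for 54532 identifiers per library. The unit was read from the values: FPKM times exon length in GENCODE vM21, which held 54495 identifiers, fell on whole reads within 0.05 for at least 96.1% of values above 0 in each library.

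Symbols, coordinates and exons come from GENCODE vM21. All tests across genes used limma-trend (R 4.3.3 with limma 3.58.1), with robust moderation, on log2(FPKM + 1) of the 11672 genes averaging 0.5 FPKM or more. Genotype was the single term, p-values were adjusted by Benjamini-Hochberg and 0.05 was the threshold; differences of low genes are understated on this scale. The fit was run on simulated reads with 200 changed genes. These reads held no library-wide shifts, so the run does not show how the fit performs on these libraries. Ratios were tested by exact two-sided permutation (scipy 1.17.1). Recovered reads cover counting error only. Named were all 9 members, Arid2, up to 4 genes per list with the smallest p, and the 2 nearest genes to each member. Some genes that this rule names are not reported here. Members and lists were chosen with earlier results of these data known. Alternatives were pseudocounts of 0.1 and 0.01, other filters, scalings, voom, array quality weights, the replicate block and left-out libraries.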

Additional observations from a re-analysis of the deposited data

How the results depend on the processing

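No member was called in any alternative other than array quality weights, which called 1 (Foxa3) along with 621 genes higher and 574 lower in LKO over all genes; the estimate of the weights stopped before it converged, and the cause was not tested. Over all genes, 1 was higher and 4 were lower in LKO. The count of higher genes was 0 with no filter, equal sums of FPKM or quantile normalization (551, 402 and 501 higher at an unadjusted p under 0.05), and the count of lower genes was 1 with no filter and 1 without both replicate 1 libraries. Leaving out 1 library gave 0 to 13 higher and 0 to 4 lower; 13 came without LKO replicate 3, and 0 of either without WT replicate 3, where 246 higher and 406 lower had an unadjusted p under 0.05. Higher genes also numbered 0 without WT replicate 2 or LKO replicate 1, and lower genes 1 without WT replicate 1 and 2 without LKO replicate 2.

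Same-numbered libraries correlated in their deviations from the group means at 0.4935, 0.3029 and -0.0234, and no label ties them, so the numbers were not taken as pairs. With the replicate block, 0 genes were higher and 0 lower (732 and 746 at an unadjusted p under 0.05), and no member was called.

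With 1 library left out, log2 differences ran from -0.19 to 0.083 for Foxa1, -2.4e-05 to 0.58 for Cebpb, -0.62 to 0.020 for Nr1h4, -0.0090 to 0.30 for Nr1i2, -0.48 to 0.10 for Nr1i3, -0.19 to 0.12 for Arid2 and -0.63 to 0.87 for Slc10a1, and those of log2 ratios from -0.094 to 0.52 for Foxa1 to Foxa2 and from -0.79 to 0.011 for Nr1i3 to Nr1i2. Slc10a1 (0.02) was -0.043 after scaling outside the mitochondrial genome, -0.088 after quantile normalization and -0.0055 by voom, and Nr0b2 (0.93) was -0.26 with array quality weights. No scaling moved the median of all genes by over 0.1. Foxa1 and Nr1i3, at 205 to 680 reads per library, have the least depth of the 9.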
